A study of Mus musculus with 24 samples.

Results

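The R339Q comparison sets mouse embryonic stem cells kept on a CTCF transgene with the R339Q substitution against cells kept on the wild-type transgene. Its members are the 4 libraries that the labels give to these groups, 2 for R339Q and 2 for wild type, out of 24 in the series. The cells are E14Tg2a, a 129/Ola line, and clones derived from it, grown without feeders in serum, leukemia inhibitory factor, a GSK3 inhibitor and a MEK inhibitor. Their own CTCF carries an auxin-inducible degron, and both groups received 500 µM indole-3-acetic acid (IAA), which drives its degradation, together with 1 µg/ml doxycycline, which switches on the transgene, for 2 days. Other libraries are used beside them. Cells of the wild-type line on IAA alone made no induced transgene, untreated cells of that line kept their own CTCF, and 8 further lines carried R342C, S354F, K365T, R377C, R377H, Q418R, R448Q or H455R and had both agents. Each group has 2 libraries of total RNA depleted of ribosomal RNA. The labels give no separate cultures or clones for the replicates. The p-values therefore measure the spread between replicate libraries, pooled over the 11 groups fitted together, which may be technical. Each substitution stands in 1 line, so the substitution and the line that carries it cannot be told apart.

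CTCF is a DNA-binding protein with a row of zinc fingers, each of which reads a few bases of a long, asymmetric motif. Bound CTCF stops the cohesin ring as it extrudes loops of chromatin, so that CTCF sites become loop anchors and boundaries between neighbouring regions. It also binds imprinting control regions on the unmethylated parental allele and insulates promoters from enhancers. In embryonic stem cells, loss of CTCF weakens these boundaries and changes a limited part of the transcriptome, with effects on growth that build up over days.

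The substituted arginine lies in finger 3, in exon 5 of Ctcf (ENSMUSG00000005698.15, chromosome 8, plus strand, GRCm38). The reference coding bases of this finger, from its first cysteine to its last histidine, are shown to place the residue, with the substituted codon in capitals (chr8:105666676-105666741, plus strand, from the GENCODE M21 transcript).

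Ctcf finger 3: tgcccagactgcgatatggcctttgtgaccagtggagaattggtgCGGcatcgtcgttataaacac

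The arginine is the last residue before the first zinc-binding histidine of the finger, which makes it helix position 6 in the usual numbering of C2H2 fingers, one of the positions that face DNA bases. The residue substituted in the R342C line lies in the same finger at helix position 9.

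Recovered read totals were 44.2 and 34.7 for R339Q and 57.5 and 42.9 for wild type, in units of 1000000 reads, within 27.8 to 77.1 over all 24 libraries. Ctcf RNA was 10247 and 10095 normalized counts in R339Q and 9973 and 10418 in wild type, with no difference detected (adjusted p = 0.979). Reads from the endogenous gene and the transgene were not separated, and RNA does not report the degraded protein. All 10 stem cell markers, Pou5f1, Sox2 and Nanog among them, were expressed, with summed levels of 9774 and 9536 TPM, a unit scaled for transcript length and library size, in R339Q and 9371 and 9019 in wild type. Summed TPM of 9 fibroblast markers was 29.0 and 31.1 against 25.6 and 23.8, with Fap at 0 in all 4 libraries, and 6 blood markers summed to 31.5 and 28.1 against 14.1 and 16.3, with Hba-a1 at 0.

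A running median of the difference between R339Q and wild type marked 5 stretches of neighbouring genes. These are given first because in some of them the wild-type line stood apart from most mutant lines. They were cut from this same contrast, so the marking itself is no evidence of a difference. In these stretches the running median over 31 tested genes in chromosome order was at least 0.4 from 0 on the log2 scale. The longest covered 23.2 Mb of distal chromosome 17 (chr17:71640879-94878321), where 75 of 93 tested genes were higher in R339Q, none were lower, and the median difference was 0.95 on the log2 scale. Summed TPM of these genes was 4003 and 4110 in R339Q and 2220 and 2080 in wild type. It was also low in the wild-type line on IAA alone (2293 and 2237), in untreated cells (2224 and 2080) and in H455R (2371 and 2386). In the other 7 mutant lines it lay between 3736 and 4306. Accordingly, the median difference of R339Q over this stretch was 0.07 from R342C and 0.05 from R377C but 0.89 from H455R. Msh6, which acts in DNA mismatch repair, the MLL-complex subunit gene Dpy30 and the hypoxia factor gene Epas1 lie here. Msh6 measured 34629 and 31989 normalized counts in R339Q against 14981 and 15319 in wild type, so that its 2.20-fold difference is of the size shared by the stretch. DNA copy number was not measured, and its part in this result was not tested. A second stretch, 2.69 Mb of chromosome 5 around Brca2 and Pds5b (chr5:148959278-151651242), had a median of -0.66 against wild type, with 15 of 26 genes lower and 1 higher. Its summed TPM was 565 and 587 in R339Q, 470 to 621 in the 8 other mutant lines and 748 to 842 in the 6 libraries of the wild-type line. On chromosome 13 a short stretch had 5 of 11 genes lower, with summed TPM of 72.1 and 85.9 in R339Q, 112 to 165 in the wild-type line and 74.6 to 152 in the other 8 mutant lines, which overlap. On chromosome 3 none of 12 genes was called, and the wild-type line (35.0 to 46.2 TPM) lay inside the range of the other 8 mutant lines (31.2 to 52.6). Summed TPM there was 39.5 and 39.7 in R339Q and 46.2 and 40.4 in wild type. The remaining stretch holds the Xlr genes of the X chromosome and is described with them.

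**Figure D1:**
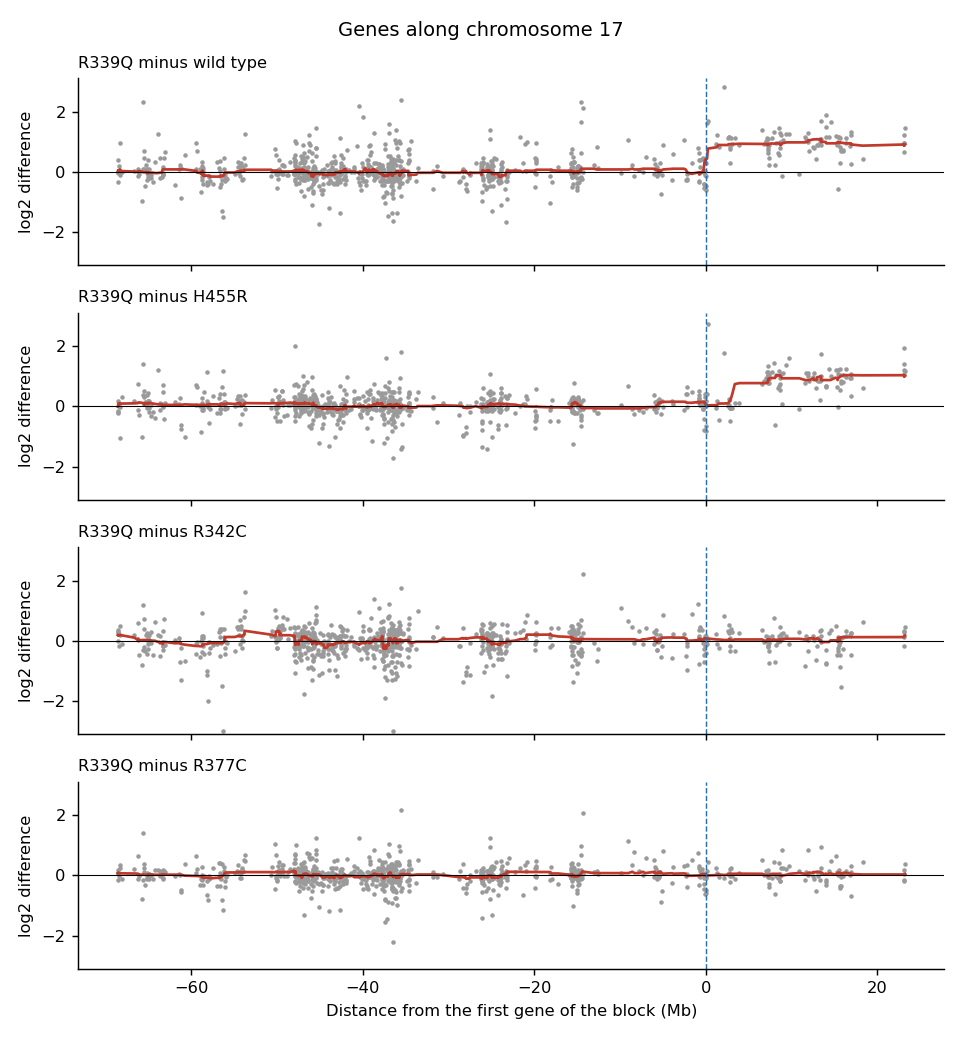
Log2 difference of R339Q from 4 other groups for each tested gene on chromosome 17 (grey points, values beyond 3 drawn at 3), against its distance in Mb from the first gene of the distal stretch (dashed line); the red line is the running median over 31 genes. It steps up to about 0.95 against wild type, is also up against H455R, and stays near 0 against R342C and R377C.

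R339Q and wild type differed in 4018 of 18713 genes tested (21.5%; limma on the log2 of the normalized count plus 1, Benjamini-Hochberg adjusted p below 0.05). Of these, 2202 were higher (11.8% of genes tested) and 1816 lower (9.7%), and 801 and 382 of them differed at least 2-fold. Without the distal chromosome 17 genes 3943 calls were counted, and without all 5 stretches 3901, which are alternatives chosen after seeing the data. Leaving out R339Q replicate 1 gave 1890 calls, wild-type replicate 1 gave 2362 and wild-type replicate 2 gave 2449, so the count rests on having both libraries of each group.

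The 12 largest increases named here were in genes of varied function. Naming required a mean of at least 50 normalized counts over the 4 libraries and left out model and clone symbols. Some genes with lower counts, such as Cdh5 below, differed by more. Cd4, the T cell co-receptor (chr6:124864692-124888221), measured 786 and 661 normalized counts in R339Q and 92.2 and 89.2 in wild type. Both R339Q libraries lay above both wild-type ones, and the difference was 7.87-fold (log2 2.98, SE 0.23, adjusted p = 3.12e-08). Tek, the angiopoietin receptor of endothelium, rose from 41.0 and 34.1 to 306 and 233 (log2 2.80, SE 0.23). The germ cell gene Tex19.2 rose from 21.2 and 19.05 to 120.1 and 126, and its neighbour Tex19.1 from 1677 and 1650 to 2736 and 2717. Fbln2, a matrix glycoprotein, rose from 35.1 and 33.1 to 183 and 187. Klhl3, a substrate adaptor of a ubiquitin ligase, was higher at 1524 and 1202 against 195 and 368. The epithelial trafficking GTPase Rab17 (log2 2.39), the tetraspanin Tspan12 (2.38) and the macrophage lectin Siglec1 (2.36) were also higher. So were the skin protein gene Dmkn (2.45), Tmem132d (2.73) and Oas1e (2.54). Groups without overlap were a condition for naming all these genes, Cd4 included, and 12248 of the 18713 genes tested had such groups. Rbfaos (2.50) is named as an antisense gene, and whether the counting used strand is not given in the sources used here. Around Cd4, 12 tested genes lay within 100 kb, and of these Gpr162, next to it, was higher (log2 1.28). That is 1 of 12 neighbours, no more than the 11.8% higher among all genes. Oas1e had 3 higher neighbours of 8, all Oas1 copies (Oas1c, Oas1f, Oas1g), which are similar in sequence and could share reads.

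**Figure D2:**
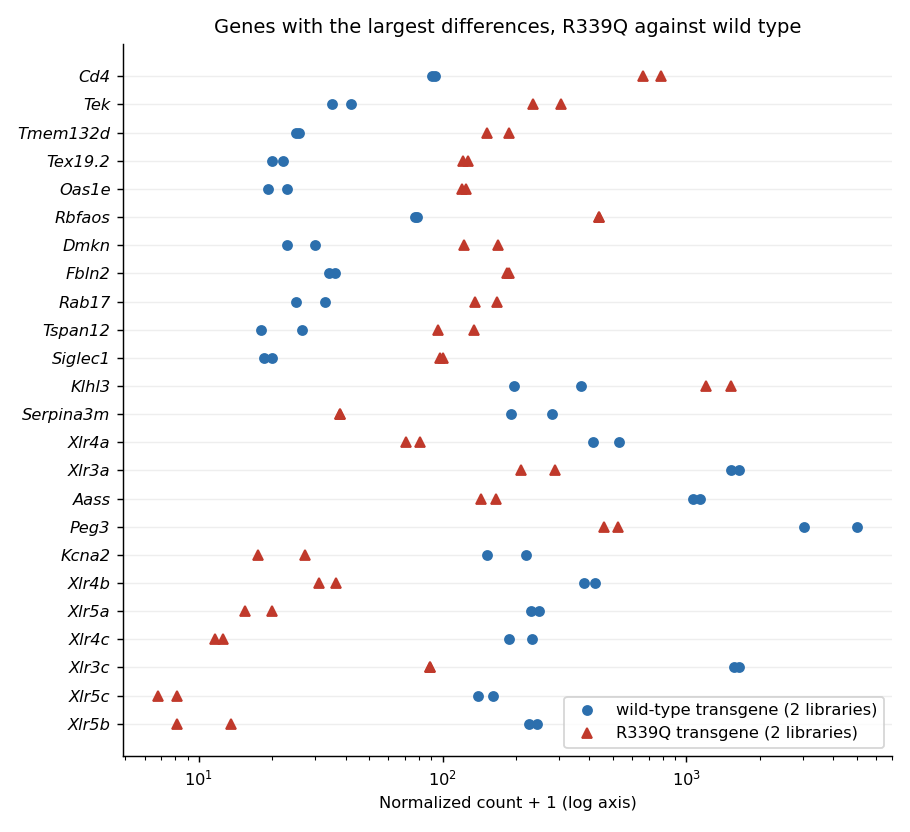
Normalized count plus 1 on a log axis in the 2 R339Q libraries (red triangles) and the 2 wild-type libraries (blue circles) for the 12 largest increases and 12 largest decreases. Only genes with a mean of at least 50 normalized counts over these libraries and no model or clone symbol were ranked. The groups do not overlap for any of the 24 genes, which the choice of genes required, and the Xlr genes fill 8 of the 12 places at the bottom.

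Most of the largest decreases, named under the same conditions, lay together on the X chromosome. Xlr3, Xlr4 and Xlr5 genes, lymphocyte-regulated relatives of a synaptonemal complex protein that include imprinted members, were lower in 9 of 10 tested members, with a median of -3.67 on the log2 scale against -0.0019 over all genes. Xlr3c measured 88.1 and 88.0 normalized counts in R339Q and 1644 and 1561 in wild type, a log2 difference of -4.17 (SE 0.25, adjusted p = 2.44e-09). Xlr5b measured 12.6 and 7.13 against 243 and 225, and Xlr4b 30.0 and 35.7 against 422 and 380. These copies are near-identical, so the level of any single one is uncertain. Genes between and beside them that are not copies were lower as well. Pnma5, of a family derived from a retrotransposon, measured 784 and 965 against 2659 and 2666, and F8a 92.0 and 91.5 against 225 and 138. Zfp185 (log2 -0.89) and Zfp275 (-0.36) were also lower, whereas Haus7 (-0.04) was not called. Over the whole stretch (chrX:72229990-73459044) 21 of 23 genes were lower and none higher, and summed TPM was 193 and 205 in R339Q against 525 and 456 in wild type. The wild-type line held 415 to 559 TPM in its 3 conditions, and the other 8 mutant lines 212 to 350, so both R339Q libraries lay below all others. The median differences over the stretch were -0.22 from R342C, with 3 of 23 genes called, and -0.53 from S354F, with 8 called.

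Imprinted genes outside the X chromosome changed at a few loci. Peg3, a paternally expressed zinc finger gene on chromosome 7 (chr7:6703892-6730431), measured 458 and 522 normalized counts in R339Q and 3038 and 5036 in wild type (log2 -2.997, SE 0.19, adjusted p = 4.15e-09). Its neighbours Usp29 (133 and 203 against 590 and 626), Zim2 (2.91 and 7.13 against 30.7 and 20.1) and Zfp264 (610 and 874 against 1178 and 1310) were lower with it. Usp29 and Zfp264 were chosen after their values were seen. Dio3, the thyroid hormone-inactivating deiodinase of the Dlk1-Dio3 domain, was higher at 610 and 547 against 240 and 205. Zfp57, which keeps imprints methylated, was higher at 24597 and 23485 against 13993 and 14696. The lists as a whole lay near the 11.8% higher and 9.7% lower of all genes, with 4 of 27 paternally expressed genes tested higher and 4 lower, and 2 and 3 of 29 maternally expressed ones, where 1 decrease was left without wild-type replicate 1 and 1 increase without R339Q replicate 1. Peg3 differed from R342C by a smaller amount (log2 -0.62, adjusted p = 0.0216) and by -2.91 from the wild-type line on IAA alone.

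On chromosome 9 a short run of genes was lower by similar amounts. Dag1, which encodes dystroglycan, measured 7746 and 6993 normalized counts in R339Q against 15743 and 15124 in wild type (log2 -1.07, SE 0.08). Rhoa, the small GTPase of the actin cytoskeleton, measured 9955 and 9336 against 19542 and 19442 (-1.02, SE 0.07). Between them Nicn1 (-0.90) and Amt (-0.98), the latter an enzyme of glycine cleavage, were lower too, and Tcta (-0.48) was not called. Gpx1, a selenium-dependent peroxidase whose gene is the next tested one past Rhoa, was higher, at 16176 and 14035 against 8531 and 8410. Nicn1, Amt, Tcta and Gpx1 were chosen after their values were seen. Dag1 was lower and Gpx1 higher in R339Q than in each of the 10 other groups, whereas Rhoa did not differ from R377H (log2 0.16) or R448Q (0.06).

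Aass, of lysine breakdown, fell from 1137 and 1061 normalized counts to 143 and 165. Klhl13, an adaptor of a ubiquitin ligase that acts in mitosis, fell from 20412 and 18973 to 3209 and 4284. Kcna2, a potassium channel, fell from 219 and 151 to 16.5 and 26.2, and Serpina3m, a serine protease inhibitor, from 280.2 and 189.5 to 36.8 and 36.9. Of genes named for high counts outside the stretches above, Uchl1 (2548 and 2454 against 1214 and 1185) and Rtkn (5697 and 4576 against 2704 and 2117) rose, and Fxyd6 (3194 and 3162 against 7267 and 7193) fell.

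Gene groups of stress and lipid metabolism were lower in R339Q, where 9.7% of all genes were lower and 11.8% higher. Of 38 tested genes of the integrated stress response, the ATF4-driven program that restores amino acid supply and slows translation, 26 were lower and none higher, with a median of -0.56. Stc2, a secreted glycoprotein, measured 314 and 435 normalized counts against 1001 and 952, Chac1, which degrades glutathione, 540.5 and 678 against 1593 and 1477, and Nupr1 1239 and 1397 against 2861 and 2991. The count was 17 without R339Q replicate 1. Cholesterol synthesis genes were lower in 17 of 25, with none higher and a median of -0.39. Cyp51, the sterol demethylase, measured 2544 and 2424 against 4968 and 4341, and Dhcr7, which makes cholesterol in the last step, 1899 and 1736 against 3148 and 2640. Of 17 fatty acid synthesis genes 11 were lower, among them Acss2 (522 and 628 against 1200 and 1145), Scd1 and Scd2, and 2 were higher, including Acacb (4055 and 4054 against 3194 and 2914). That count of 11 was 7, 7 and 6 without R339Q replicate 1, R339Q replicate 2 or wild-type replicate 1.

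**Figure D3:**
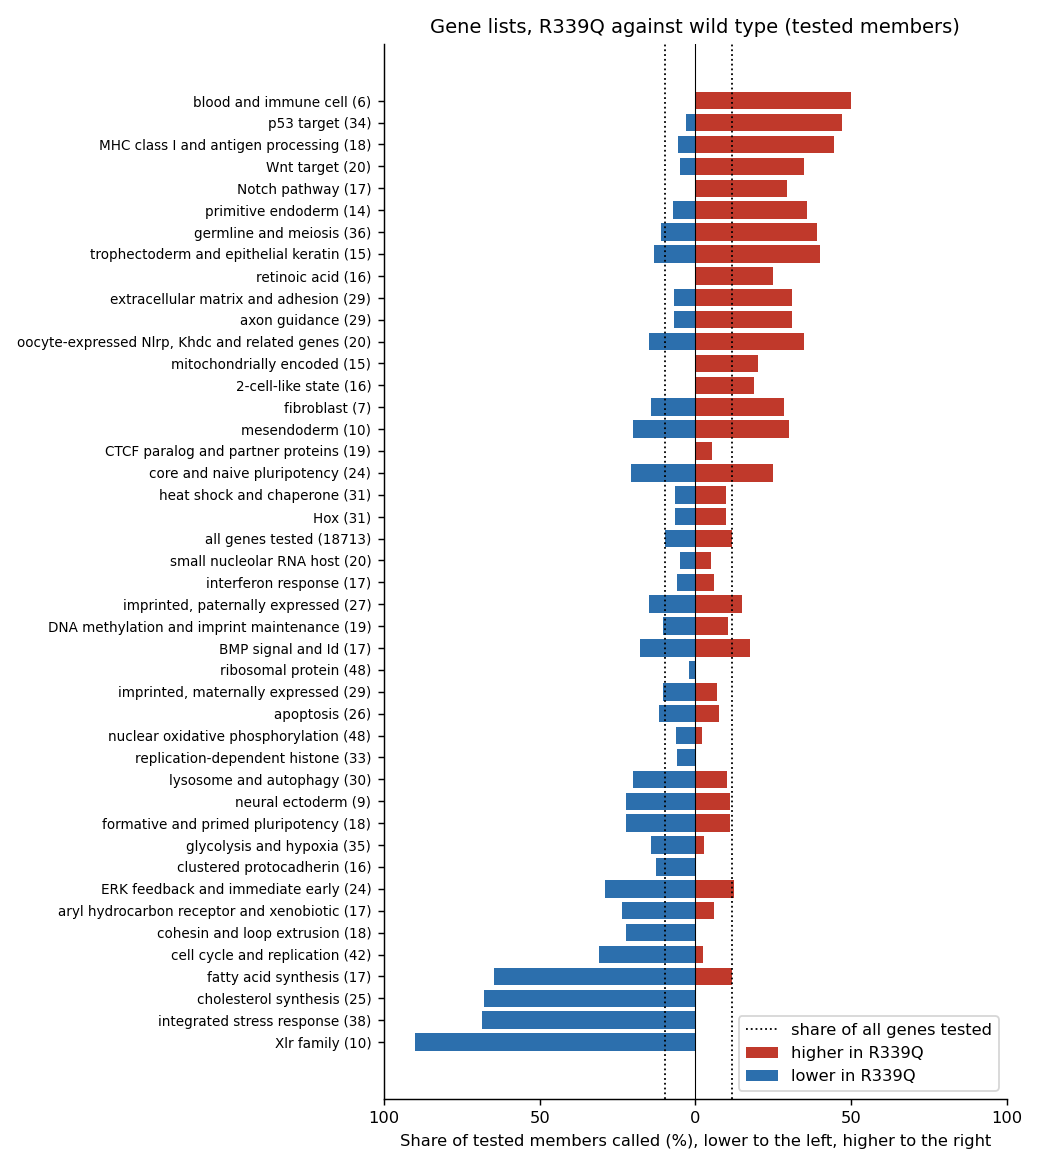
Share of the tested members of each gene list (number tested in parentheses) called higher (red, right) or lower (blue, left) in R339Q; dotted lines mark the shares over all genes, 11.8% and 9.7%. The Xlr, stress response, cholesterol and fatty acid lists reach furthest to the left, and the blood, p53 target and antigen-processing lists furthest to the right.

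p53 target genes moved the other way, with 16 of 34 higher, 1 lower and a median of 0.36. Over all genes 11.8% were higher and 9.7% lower. Plk2, a polo-like kinase, measured 3904 and 2962 normalized counts against 1845 and 1281, Perp, of cell junctions and death, 371 and 300 against 181 and 120, and the sugar reductase gene Dcxr 1567 and 1235 against 768 and 674. The death receptor Fas measured 34.9 and 24.97 against 6.58 and 8.02. Among cell cycle and replication genes 13 of 42 were lower, by small amounts, and 1 was higher. Cdt1, which licenses replication origins, measured 4352 and 4335 against 5733 and 5563, and Ccnd2, a D-type cyclin, was the exception at 171 and 199 against 80.5 and 76.2. The 13 became 4, 3, 3 and 5 when R339Q replicates 1 and 2 and wild-type replicates 1 and 2 were left out in turn.

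Stem cell genes shifted in both directions, and list counts here are set beside the 11.8% higher and 9.7% lower of all genes. Of 24 core and naive pluripotency genes 6 were higher and 5 lower, with a median of 0.04. Nanog measured 50734 and 46878 normalized counts against 35872 and 36562 and Zfp42 21547 and 20349 against 15595 and 16810, whereas Klf5 was lower at 12115 and 12571 against 17416 and 17797 and Tcl1 at 2817 and 2859 against 4205 and 3739. Leaving out R339Q replicate 1 left 2 higher members, wild-type replicate 1 left 3, and each of R339Q replicate 2 and the wild-type replicates left 3 lower ones. Pou5f1 did not pass the test (23119 and 21496 against 19161 and 19246, adjusted p = 0.055), but it did so with edgeR (adjusted p = 0.0429), DESeq2 (adjusted p = 0.0221) and TPM (adjusted p = 0.0272), and the alternatives ranged from 0.00728 to 0.333. Sox2 was 15554 and 14915 against 16551 and 16642, with no difference detected (adjusted p = 0.287). Of 18 formative and primed genes 4 were lower and 2 higher. Etv4, an ETS factor downstream of ERK, fell from 2244 and 2040 to 1263 and 1300, and the de novo methyltransferase Dnmt3a from 2480 and 2412 to 1834 and 1798. In the list of ERK feedback and immediate early genes, 7 of 24 were lower and 3 higher. The share of higher members in this list and in the formative list was near that of all genes. Dusp6, the phosphatase that switches ERK off, measured 269 and 301 against 551 and 472, while Ier3 (376 and 307 against 170 and 159) and Fosl1 (39.7 and 36.9 against 6.58 and 3.01) were higher. Leaving out any 1 of the 4 libraries gave 2 formative decreases, and leaving out R339Q replicate 1 gave 4 ERK decreases and no formative increase.

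Markers of other lineages were raised in part, and their counts are set beside the 11.8% higher and 9.7% lower of all genes. Primitive endoderm genes were higher in 5 of 14 and lower in 1. Lamb1, a basement membrane laminin, measured 2170 and 1952 normalized counts against 598 and 710, and the endoderm factor Gata4 562 and 499 against 252 and 250. Trophectoderm and keratin genes were higher in 6 of 15 and lower in 2, with Krt7 at 167 and 112 against 33.6 and 45.1 and Krt19 at 139 and 112 against 32.2 and 40.1, while Gata2 fell from 1174 and 976 to 425 and 454. Without R339Q replicate 1 the increases numbered 2 and 3 in these lists, and without wild-type replicate 2 they numbered 3 and 3. In the fibroblast list Thy1 (151 and 161 against 59.3 and 48.1) and Col1a1 (315 and 301 against 138 and 102) were higher and Vim (5001 and 4953 against 8574 and 8261) lower. Tubb3, a neuronal tubulin, was higher at 2318 and 2123 against 1188 and 1099, while Nes fell from 3556 and 4142 to 2303 and 2710. Among the tested markers by cell type, 2 of 6 for primitive endoderm, 3 of 5 for trophectoderm and 2 of 2 for blood were higher and none lower. Of 4 neural markers 1 was higher and 1 lower, and of 4 mesendoderm markers 1 was lower and none higher, with summed TPM of 22.9 and 24.9 against 33.6 and 28.4. In bulk RNA, a few cells with such a profile and a low level in all cells cannot be told apart.

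Germline genes were higher in 14 of 36 tested and lower in 4, with a median of 0.41, beside 11.8% higher and 9.7% lower of all genes. Brdt, a testis bromodomain protein, measured 450 and 413 normalized counts against 116 and 98.3, and Tex101, a sperm surface protein, 187 and 240 against 59.3 and 51.1, while the meiotic cohesin gene Smc1b fell from 828 and 753 to 228 and 344.8, a list with 1 decrease when R339Q replicate 1 was left out. In the list of oocyte-expressed genes 7 of 20 were higher and 3 lower, and Nlrp14 (27.1 and 36.9 against 64.4 and 86.2) and Nlrp9b (172 and 231 against 383 and 397) were among the latter. Antigen presentation genes of the MHC class I list were higher in 8 of 18 and lower in 1, with H2-Q10 at 139 and 175 against 63.6 and 55.1. These genes are close copies of one another, and their increases numbered 2, 4 and 3 without R339Q replicate 1 or wild-type replicates 1 and 2.

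Signalling lists differed in direction, and their counts are set beside the 11.8% higher and 9.7% lower of all genes. BMP and Id genes had 3 of 17 higher and 3 lower, with 1 increase without wild-type replicate 1, and interferon response genes 1 of 17 higher and 1 lower. Wnt pathway targets and ligands were higher in 7 of 20 and lower in 1, Wnt8a measuring 126 and 120 against 37.3 and 35.1, and the count was 3, 4 and 2 without R339Q replicate 1, R339Q replicate 2 or wild-type replicate 2. Of 17 Notch genes 5 were higher, with Hes1, the repressor it induces, at 3351 and 3214 against 2113 and 2269; that count was 2 without R339Q replicate 1 and 3 without wild-type replicate 2. Matrix and adhesion genes were higher in 9 of 29 and lower in 2. Col5a1, a fibrillar collagen, measured 3630 and 3491 against 1576 and 1451, and Cdh5, the cadherin of endothelium, 62.0 and 32.1 against 3.66 and 4.01. Axon guidance genes were likewise higher in 9 of 29 and lower in 2, with Plxna2 at 353.5 and 378 against 128 and 165 and Slit2 at 1718 and 1780 against 718 and 873. Each of these counts of 9 fell to 5, for matrix genes without wild-type replicate 2 and for axon guidance genes without R339Q replicate 1.

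Of 18 genes of cohesin and loop extrusion 4 (22.2%, beside 21.5% of all genes) were lower and none higher, among them Pds5b, a cohesin regulator inside the chromosome 5 stretch (5501 and 5396 against 6962 and 7047). Without R339Q replicate 1 only 2 were called. Among 19 genes of CTCF relatives and partners 1 was called. Clustered protocadherins, cell surface genes whose promoters are chosen through CTCF, had 16 members above the filter, of which 2 were lower and none higher. Pcdhga12 measured 38.7 and 61.8 against 130 and 109, and 1 decrease was left without wild-type replicate 1. Nuclear genes of oxidative phosphorylation (1 of 48 higher, 3 lower) and ribosomal protein genes (0 higher, 1 of 48 lower) had few calls beside the 21.5% of all genes. The 3 decreases of the former became 1 without R339Q replicate 1 or wild-type replicate 1 and 0 without R339Q replicate 2 or wild-type replicate 2. Of 15 mitochondrially encoded genes 3 were higher, including mt-Nd5 (94910 and 97559 against 43658 and 52911). Reads on these genes made up 2.80% and 2.67% of the R339Q libraries and 1.62% and 1.92% of the wild-type ones, in a range of 1.22% to 3.38% over all libraries, and none of the 3 calls was left without R339Q replicate 1 or wild-type replicate 1.

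R342C changes another arginine of the same finger, and the direct contrast with it does not use the wild-type libraries. It called 4991 genes (26.7%), 2953 higher in R339Q (15.8%) and 2038 lower (10.9%). On TPM the split turned to 1774 higher and 2393 lower. The count was 2229 without R339Q replicate 1 and 3052 without R342C replicate 1. Integrated stress response genes were lower in R339Q than in R342C in 33 of 38 and higher in none, with a median difference of -0.74. Stc2 differed by -1.93 on the log2 scale and Vldlr by -1.96. Heat shock and chaperone genes were higher in 16 of 31 and lower in 1, Hspa8 by 1.28. Nuclear oxidative phosphorylation genes were higher in 17 of 48 and lower in none, with a median difference of 0.14. The median over all genes was 0.025 here and -0.051 on TPM, so small list differences depend on the scaling. List counts against R342C were not repeated under the alternatives. Oocyte-expressed genes were higher in 10 of 20 and lower in 2, antigen presentation genes lower in 7 of 18 and higher in 2, and protocadherins lower in 5 of 16. Cd4 was 2.71 higher and Dag1 1.06 lower in R339Q, and Xlr3c (-0.52, adjusted p = 0.145) and Xlr5b (0.48, adjusted p = 0.35) did not pass the test.

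Against the wild-type line on IAA alone, which has no induced transgene, 2947 genes were called (15.7%), 1706 higher (9.12%) and 1241 lower (6.63%) in R339Q. Line, transgene and doxycycline all differ in this contrast and cannot be told apart. The count includes genes of the stretches above. Called there were 78 of 93 on chromosome 17, 14 of 26 on chromosome 5 and 20 of 23 on the X chromosome. Leaving out R339Q replicate 1 or 2 gave 1313 or 1805 calls, and leaving out replicate 1 or 2 of the cells on IAA alone gave 1524 or 1749. Duox1, which makes hydrogen peroxide, measured 687 and 581 normalized counts in R339Q and 81.3 and 98.8 on IAA alone, and the sodium channel gene Scn3a 114 and 111 against 16.1 and 12.2. Neither gene differed from the wild-type transgene (log2 0.26 and 0.23). Protocadherins were higher in 5 of 16 with a median difference of 1.00, and integrated stress response genes were higher in 17 of 38 and lower in none. Stc2 (log2 0.62) and Vldlr (0.08), lower than on the wild-type transgene, did not pass the test against IAA alone. Xlr genes were lower in 10 of 10. Some lists that moved against the wild-type transgene did not do so here. Wnt targets and ligands were higher in 0 of 20 and lower in 4 (median difference -0.14). The p53 targets were higher in 4 of 34 and lower in 2 (0.04), and cholesterol synthesis genes higher in 2 of 25 and lower in 4 (-0.08). Germline genes (10 of 36 higher, 4 lower) and matrix genes (11 of 29 higher, 2 lower) kept their direction. Tex19.2, Oas1e and Dmkn, raised against the wild-type transgene, did not differ detectably from IAA alone (log2 -0.12, 0.17 and 0.42).

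The number of genes called between R339Q and each remaining mutant varied more than 6-fold. R377C was nearest with 1259 genes (6.73%), then S354F with 1509 (8.06%) and H455R with 2502 (13.4%), the last including the distal chromosome 17 genes. R377H differed in 6038 (32.3%), Q418R in 6073 (32.5%), K365T in 6293 (33.6%) and R448Q in 8249 (44.1%). R377H and R377C change the same arginine. The spread used for a gene was pooled over the 11 groups and was the same in every contrast. Deviations of single libraries and their depth, as well as the size of the differences, can enter these counts.

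**Figure D4:**
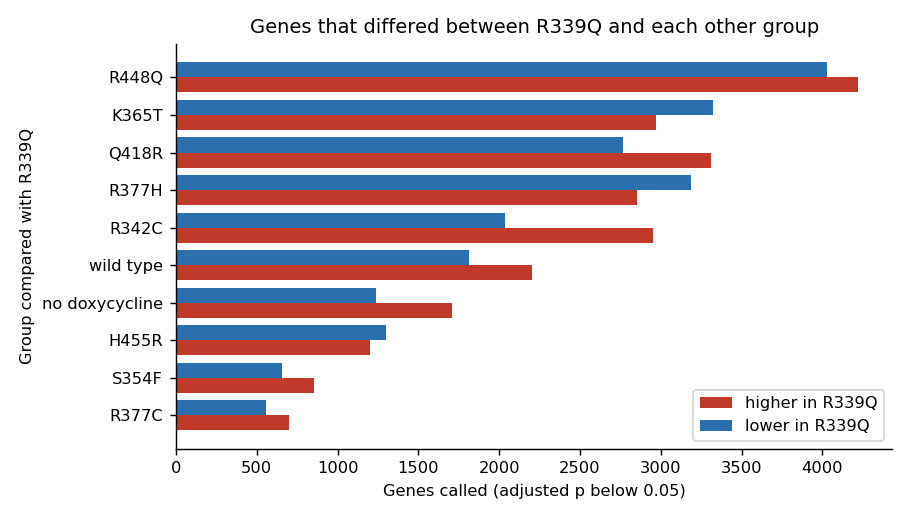
Number of genes called higher (red) or lower (blue) in R339Q in the direct contrast with each of the 10 other groups; "no doxycycline" is the wild-type line on IAA alone. R377C has the fewest calls, 1259 in all, and R448Q the most, 8249.

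Only 24 genes (0.128% of those tested) were called in the same direction against all 10 groups and differed at least 2-fold from wild type, 9 higher and 15 lower. For each of the 24, both R339Q libraries lay outside the range of the other 20, which follows largely from the choice of genes. Without R339Q replicate 1, 5 genes met the rule, Dag1, Dusp1, Epas1, Zbtb16 and Gm47510, and without R339Q replicate 2, 33 did, 17 of them among the 24. Synj2, an inositol phosphatase of vesicle traffic, measured 927 and 783 normalized counts, where the other 20 libraries had a median of 321 and a highest value of 477. The costimulatory ligand Cd80 measured 1271 and 1003 (others 178 to 682) and Zbtb16, a transcription factor of germline stem cells and innate lymphocytes, 306 and 300 (others 81.7 to 194). Developmental factors were among them, with Tbx18 at 630 and 543 (others 130 to 404) and Sox4 at 2346 and 1799 (others 602 to 1460). Ttll6, which adds glutamates to tubulin, measured 1508 and 1330 (others 277 to 955), Snx20 619 and 608 (others 110 to 445) and Sytl1 469 and 396 (others 39.3 to 295). Of the decreases, Rtp2, which helps odorant receptors to the surface, measured 21.3 and 28.5 (others 53.2 to 162). Untreated cells were not among the 10 groups. Rtp2 stood at 0.466 TPM in them, 0.715 in R339Q and 3.98 on the wild-type transgene, so its low level is not particular to R339Q. Nrros, a partner of latent TGF-beta, measured 143 and 185 (others 235 to 616). Dusp1, an immediate early phosphatase of MAP kinases, measured 485 and 598 (others 807 to 2038) and the lipase gene Lpl 690 and 654 (others 843 to 1999). Acss2 (522 and 628, others 782 to 1200), Pnma5 (784 and 965, others 1120 to 2666), Dag1 (7746 and 6993, others 11244 to 17318) and Rpl39l (383 and 546, others 608 to 2606) had the same pattern, with the closest line differing by 0.47 to 0.67 on the log2 scale in these 4.

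**Figure D5:**
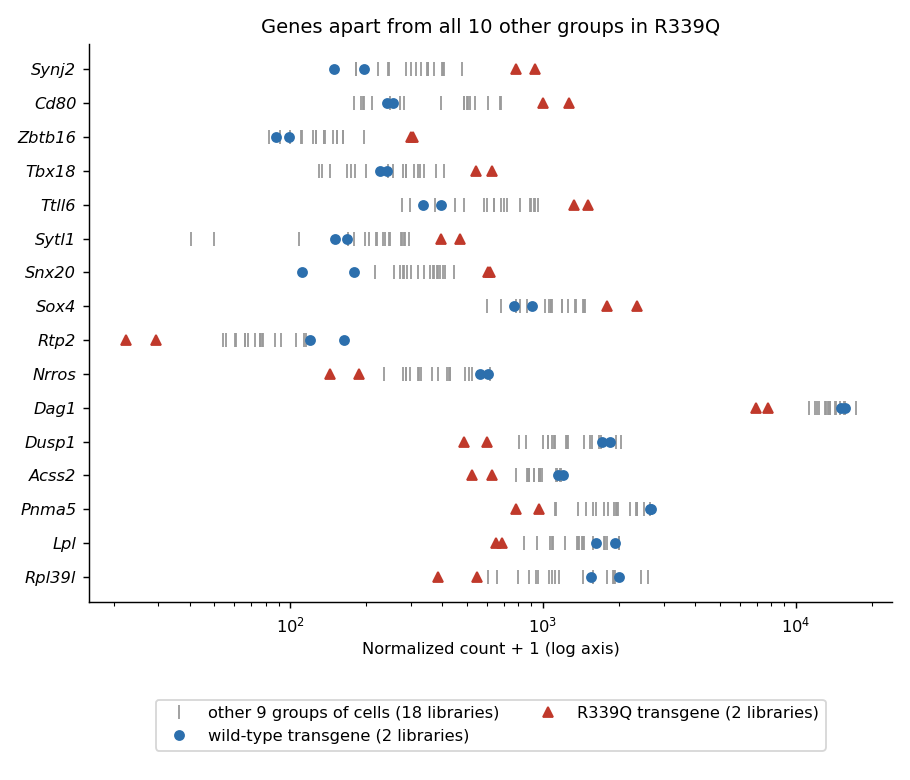
Normalized count plus 1 on a log axis in the R339Q libraries (red triangles), the wild-type transgene libraries (blue circles) and the 18 libraries of the other 9 groups (grey ticks) for 16 genes that differed from all 10 groups. The R339Q points lie outside the others in each gene, as the 8 upper genes are highest and the 8 lower genes lowest in R339Q.

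The untreated libraries were scaled in a table of their own, so their TPM is set beside the others as levels with no test. Xlr3c stood at 72.6 TPM in untreated cells, 76.1 on the wild-type transgene and 4.25 in R339Q, and Aass at 29.7, 21.7 and 3.09. Klhl13 had 335, 348 and 67.6. For these genes the wild-type transgene was nearer to the untreated level than R339Q was. Other decreases had a low untreated level. Kcna2 stood at 0.098, 1.18 and 0.138 TPM and Serpina3m at 1.97, 10.3 and 1.64, so that R339Q was nearer to untreated cells. Cd4 had 0.02, 1.69 and 13.7 TPM, above untreated cells in both transgene lines. Of the 801 genes at least 2-fold higher in R339Q, 707 (88.3%) had an untreated level nearer to that of the wild-type transgene. Of the 382 lower ones 212 (55.5%) did. These genes were picked for that difference, so a gene with a low untreated level counts toward whichever group is lower. Untreated cells are also of the wild-type line, and no share over all genes was taken, so no conclusion is drawn from these shares.

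RefSeq promoters of GRCm38.p6, 250 bases before to 50 after each start, were searched for the core letters of the CTCF motif on both strands. It was found in 8.61% of 32851 promoters. Of the 40 genes named for the largest changes or for standing apart from all 10 groups, 31 matched 35 promoters. Of these promoters 3 (8.57%) held it. The upstream 250 bases of those 3 are printed because they carry the match, shown in capitals, beside that of Xlr3c, which moved with its neighbours and has none. None of the 9 Xlr3, Xlr4 and Xlr5 promoters held these letters. Binding was not measured in these libraries. In GRCm38.p6 the windows are chr6:91212514-91212763 on the plus strand for Fbln2, chr11:96133536-96133785 on the plus strand for Ttll6, chr16:32165595-32165844 on the minus strand for Nrros and chrX:73265391-73265640 on the minus strand for Xlr3c.
Fbln2: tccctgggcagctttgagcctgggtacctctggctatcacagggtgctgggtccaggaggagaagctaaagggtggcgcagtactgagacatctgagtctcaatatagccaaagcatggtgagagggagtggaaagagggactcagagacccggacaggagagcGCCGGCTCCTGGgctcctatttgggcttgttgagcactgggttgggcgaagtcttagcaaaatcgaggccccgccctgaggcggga
Ttll6: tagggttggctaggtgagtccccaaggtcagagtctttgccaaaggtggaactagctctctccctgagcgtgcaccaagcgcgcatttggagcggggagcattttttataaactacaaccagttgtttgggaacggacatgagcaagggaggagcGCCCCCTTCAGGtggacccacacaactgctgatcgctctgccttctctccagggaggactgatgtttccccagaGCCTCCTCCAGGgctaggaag
Nrros: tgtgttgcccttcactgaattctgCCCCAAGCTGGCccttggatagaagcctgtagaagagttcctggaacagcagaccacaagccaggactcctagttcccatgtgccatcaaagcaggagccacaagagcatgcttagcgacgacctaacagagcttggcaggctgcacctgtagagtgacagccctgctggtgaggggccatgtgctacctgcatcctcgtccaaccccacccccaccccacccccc
Xlr3c: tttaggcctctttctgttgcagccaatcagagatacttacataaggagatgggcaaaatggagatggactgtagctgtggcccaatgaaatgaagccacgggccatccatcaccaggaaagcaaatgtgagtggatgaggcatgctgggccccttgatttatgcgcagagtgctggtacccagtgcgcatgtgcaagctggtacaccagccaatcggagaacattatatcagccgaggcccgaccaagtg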

How the data were processed

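Total RNA was sequenced from 24 libraries in 12 groups. Reads were trimmed with Trim Galore, aligned with STAR to mm10 and normalized with DESeq2, per the submitters' processing notes, and no versions are named there. The authors deposited a normalized signal (counts divided by a size factor) for 22 libraries in 1 table and for the 2 untreated libraries in another, and TPM for all. All values were whole reads within 0.1 read once multiplied by the recovered size factor, which gives the depths stated.

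Genes whose mean reached 10 normalized counts across the common table were fitted with limma 3.58.1 (R 4.3.3, eBayes with trend) on log2(normalized count + 1), with 1 coefficient for each of 11 groups and 11 residual degrees of freedom. The 11 groups of 2 share 1 estimate of the spread. Tests were two-sided with Benjamini-Hochberg adjustment over 18713 genes. Fold changes are on that log2 scale, which understates low genes. The procedure was also run on simulated counts in which only a set of genes in R339Q was changed. Wide differences among the other groups and stretches that shift together were not simulated, so no conclusion is drawn from it. Positions come from GENCODE M21, where 53186 of 55291 symbols were placed once. Of 1130 distinct genes in 43 lists 1125 matched and 964 were tested. No set test was run. Named genes are the 12 largest changes each way, the 8 most abundant 2-fold changes each way and up to 4 and 2 per list. Others are the 6 largest each way in 2 direct contrasts and the 8 each way that stand most apart from the 10 groups. The members and lists were chosen with earlier results of these data known. Alternatives were 2 other pseudocounts, 2 filters, TPM, quantile normalization, edgeR 4.0.16 and DESeq2 1.42.0 on the recovered reads, the compared groups alone, centring along chromosomes, a replicate block and leaving out each library.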

Additional observations from a re-analysis of the deposited data

Results flagged for a closer look

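R339Q and R342C substitute arginines of the same finger, and 12 genes with large direct differences between the 2 lines are given because the difference itself passed the limma test (R339Q minus R342C, log2). They are the largest each way among genes with a mean of at least 50 normalized counts over the libraries compared and no model or clone symbol. Higher in R339Q were Rbfaos (3.098), Id3 (3.09), Cd4 (2.71), Nlrp4c (2.52), Enox1 (2.41) and Rtl8c (2.36). Id3, an inhibitor of helix-loop-helix factors, measured 330.3 and 364.99 normalized counts in R339Q, 34.3 and 46.4 in R342C and 75.3 and 136 on the wild-type transgene. Rtl8c, derived from a retrotransposon, measured 115 and 113, 28.3 and 16.2, and 72.4 and 80.2 in the same order. Lower in R339Q were Dll1 (-3.28), Trim50 (-2.86), Entpd3 (-2.78), Kcna2 (-2.60), Aqp8 (-2.60) and Ripply3 (-2.36). Dll1, a Notch ligand, measured 33.9 and 38.0 in R339Q, 295 and 430 in R342C and 155 and 70.2 on the wild-type transgene. Ripply3 measured 33.9 and 49.9, 244 and 190.2, and 95.8 and 84.2. The groups of libraries did not overlap for any of these 12 genes, which the choice required.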

How the results depend on the processing

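The alternatives run kept the counts against wild type, R342C and IAA alone within 1.5 times the stated ones, except those that leave out a library. Against wild type the count was 3394 to 5303 without leaving out a library and 1890 to 2833 with 1 left out, against R342C 2229 to 4588, and against IAA alone 1313 to 1805. The count apart from all 10 groups ranged from 5 to 33, and without a filter on low values it was 28, of which 19 were higher and 9 lower. The cause was not tested, beyond the loss of 1 of 2 libraries in a group, where the lone library is assumed to vary like the other groups. Ctcf stayed between -0.08 and 0.04 (log2). Of 242 named genes 142 kept their call or its absence against wild type under every alternative run, and of 3606 repeats 329 lost a call, 11 gained one and none reversed a called direction. The sign of the median turned for 4 lists whose medians are near 0. With the replicate block 4031 genes were called against wild type. Same-numbered libraries of R339Q and wild type did not deviate together (correlation of 0.02). Over 55 pairs of groups correlations ran from -0.25 to 0.38 and were above 0.1 in 10. One of these was wild type with IAA alone (0.21). The numbers were not taken to pair samples, and a batch shared by some groups was not tested. Depth limits the precision of low genes.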

Other observations

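Lists not described above are set beside the 21.5% of all genes called against the wild-type transgene. Of 31 Hox genes 3 were higher and 2 lower (16.1% called), and of 35 glycolysis and hypoxia genes 1 was higher and 5 lower (17.1%). In the latter the angiogenic factor Vegfa fell from 4719 and 5132 to 3080 and 3505 normalized counts and the pyruvate dehydrogenase kinase Pdk1 from 1828 and 1996 to 1504 and 1371. Among 17 genes of the aryl hydrocarbon receptor and xenobiotic list 4 were lower and 1 higher (29.4%), including Ahr itself (259 and 262 against 443 and 395) and the glutathione transferase Gstm1 (1138 and 1252 against 2117 and 2058). Lysosome and autophagy genes were lower in 6 of 30 and higher in 3 (30% called), with Tfeb, the factor that drives lysosomal genes, at 3364 and 3196 against 4160 and 4198. Without R339Q replicate 1 these lists had 1 higher and 0 lower Hox genes, and 2 lower genes in each of the glycolysis, xenobiotic and lysosome lists. Without wild-type replicate 1 they had 1 and 0 for Hox, and 3, 2 and 2 lower. The 6 lysosome decreases became 4 without R339Q replicate 2 and 3 without wild-type replicate 2, and the 5 glycolysis ones 3 without R339Q replicate 2. None of the 3 lysosome increases was left without R339Q replicate 1, wild-type replicate 1 or wild-type replicate 2. The Hox counts were 2 and 1 without R339Q replicate 2 and 1 and 1 without wild-type replicate 2.

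Of 19 genes of DNA methylation and imprint maintenance 2 were higher and 2 lower, 21.1% called beside 21.5% of all genes. Among the lower ones was Tet3, a 5-methylcytosine oxidase (2022 and 1954 against 3717 and 3013). Of 16 retinoic acid genes 4 were higher and none lower (25% called), with the receptor Rarg at 3102 and 2882 against 1792 and 1674. The 4 became 2 without R339Q replicate 1 or either wild-type replicate. Snhg17, 1 of 2 small nucleolar RNA host genes called among 20 (10%), measured 283 and 289 against 1017 and 1045. It was higher than in cells on IAA alone by 0.88 on the log2 scale. In the list of genes of the 2-cell-like state 3 of 16 were higher and none lower (18.75% called), with a median of 0.63. Without R339Q replicate 2 or wild-type replicate 2 these 3 increases became 1. Against IAA alone 3 were lower, with a median of -1.66. By class of gene, 25.5% of 14208 protein-coding genes tested were called, 15.9% of 636 lincRNAs and none of 149 small nucleolar RNAs.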
